A study of Mus musculus with 468 samples.

Results

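Trem2, Cd9, Gpnmb, Spp1, Lgals3, Itgax, Mmp12 and Atp6v0d2 are 8 genes by which lipid-associated macrophages of obese fat are usually recognised. They were taken by symbol from the 23180 genes counted in white fat of all Diversity Outbred mice of the series, an outbred stock that descends from 8 inbred founder strains. Every mouse was fed a high-fat, high-sugar diet (45% fat per the labels) from 4 weeks of age and, by the study's methods, was killed at 22 weeks. There was 1 library per mouse and no control diet or untreated group, so all comparisons here run across mice of 1 group. The labels give neither genotype nor sex. Libraries were divided by the presence of any count over the Y chromosome genes Ddx3y, Eif2s3y, Kdm5d and Uty, which 51.5% of libraries had and 48.5% lacked. The labelled tissue carried its fat cell markers, since the summed level of 8 adipocyte genes (Adipoq, Plin1, Lipe, Pnpla2, Cidec, Retn, Cfd and Slc2a4) lay between 3571 and 23712 counts per 1000000 (CPM) over all libraries.

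Lipid-associated macrophages gather in crown-like structures around dying fat cells, take up the lipid that these release and break it down in their lysosomes. TREM2 is a surface receptor for lipids and lipoproteins that signals through the adaptor TYROBP, and macrophages of mice that lack it do not enter this state fully. The other genes serve its parts: CD9 is a membrane tetraspanin, ITGAX (CD11c) an integrin, GPNMB a lysosomal and surface glycoprotein, ATP6V0D2 a subunit of the proton pump that acidifies lysosomes, and osteopontin (SPP1), galectin-3 (LGALS3) and the elastase MMP12 are secreted. Adgre1 encodes F4/80, a general macrophage surface protein. Lep encodes leptin, which fat cells make in larger amounts as they enlarge. In tissue RNA, fewer cells of a type and less RNA per cell cannot be told apart.

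The 8 genes were detected in every library, apart from Spp1 in 1. Total counts ran from 35298813 to 137760410 per library (median 82043357), so that 3 counts equalled at most 0.103 CPM in any library. Trem2 (ENSMUSG00000023992, chromosome 17, 48346401 to 48354147, plus strand, GRCm38) had a lowest, median and highest level of 0.913, 21.6 and 193.3 CPM, and its smallest count in any library was 70. Cd9 (ENSMUSG00000030342, chromosome 6, 125460266 to 125494791, minus strand) spanned 10.1, 39.9 and 182.996 CPM. Cd9 was the steadiest of the group, and the highest Trem2 was in mouse DO088.

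Gpnmb (ENSMUSG00000029816, chromosome 6, 49036546 to 49070929, plus strand) had a lowest level of 2.80, a median of 35.5 and a highest level of 2143 CPM. Lgals3 (ENSMUSG00000050335, chromosome 14, 47367751 to 47386160, plus strand) spanned 8.55, 63.8 and 649.04 CPM. Spp1 (ENSMUSG00000029304, chromosome 5, 104435118 to 104441050, plus strand) spanned 0, 2.22 and 535.2 CPM, with 1 library at 0. The secreted product Spp1 was thus low in most mice and abundant in few.

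Itgax (ENSMUSG00000030789, chromosome 7, 128129547 to 128150657, plus strand) had a lowest level of 0.318, a median of 9.96 and a highest level of 434.01 CPM. Mmp12 (ENSMUSG00000049723, chromosome 9, 7344381 to 7369499, plus strand) spanned 0.0605, 10.9 and 1022 CPM. Atp6v0d2 (ENSMUSG00000028238, chromosome 4, 19876841 to 19922605, minus strand) spanned 0.0627, 4.23 and 205.3 CPM. The annotated gene bodies of Cd9, Spp1 and Mmp12 overlap other genes (Gm28809 and Gm26728, Gm42793, and Mmp1b), and reads shared with these may have been assigned to either.

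Per kilobase of merged exons, the median levels fell in the order Lgals3 (34.3 CPM per kb), Cd9 (19.5), Gpnmb (5.46), Trem2 (4.37), Itgax (2.07), Atp6v0d2 (1.56), Mmp12 (1.51) and Spp1 (1.35). Lgals3 lay above Cd9 in 87.2% of libraries and Cd9 above Gpnmb in 79.7%. At the other end the order was not held from mouse to mouse: Trem2 exceeded Itgax in 55.98% of libraries, Atp6v0d2 exceeded Mmp12 in 57.1%, and Mmp12 exceeded Spp1 in 48.9%. The quartile ranges of Itgax, Atp6v0d2, Mmp12 and Spp1 overlapped throughout.

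The group was among the most variable in the tissue. The standard deviation of log2 CPM over all libraries was 2.88 for Mmp12, 2.65 for Spp1, 2.33 for Atp6v0d2, 2.32 for Itgax, 2.05 for Gpnmb, 1.73 for Trem2, 1.32 for Lgals3 and 0.69 for Cd9. The median over all 18380 genes that passed the filter on low counts was 0.46, and the 95th percentile was 1.67. Of the 8, Trem2, Gpnmb, Spp1, Itgax, Mmp12 and Atp6v0d2 lay above that percentile, while Lgals3 and Cd9 did not. Between the 10th and 90th percentile of the mice Mmp12 varied 244.9-fold, Spp1 133.8-fold and Atp6v0d2 72.002-fold, against 3.33-fold for Cd9 and 4.56-fold for Adgre1.

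**Figure D1:**
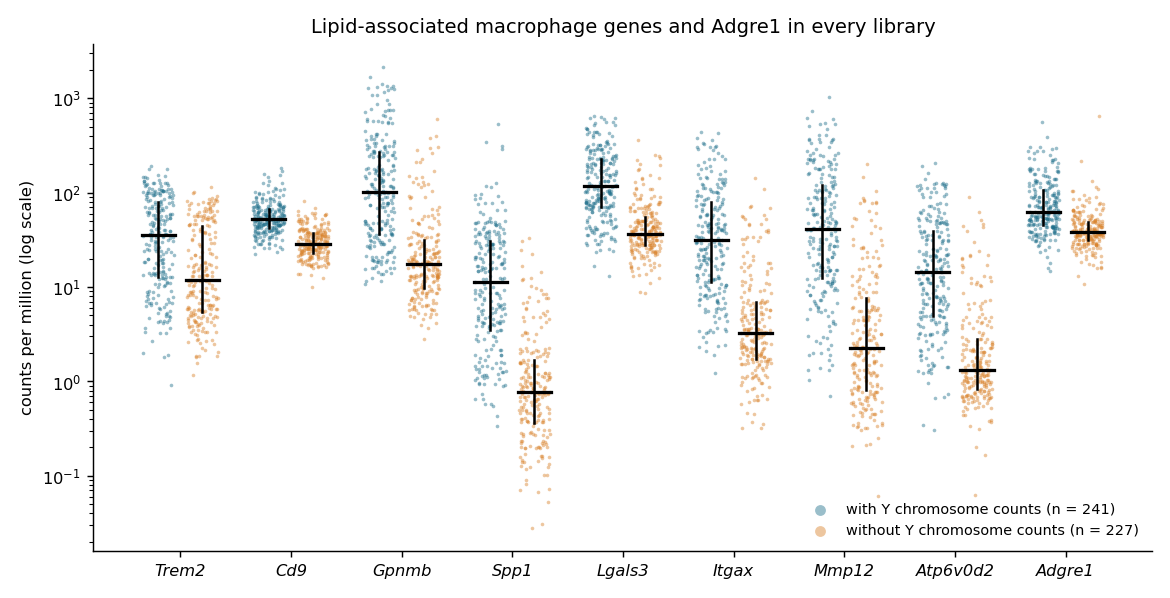
Level in CPM (log axis) of the 8 genes and of Adgre1, 1 point per library, for the libraries with and without Y chromosome counts. Horizontal bars are medians, vertical bars run from the 25th to the 75th percentile, and the 1 library with Spp1 at 0 cannot be drawn on a log axis. Every gene had the higher median in libraries with Y chromosome counts, and Mmp12, Spp1 and Atp6v0d2 were the farthest apart.

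Libraries with Y chromosome counts had the higher median of every gene, and the distributions overlapped in each. The median of Mmp12 was 41.6 against 2.27 CPM, a ratio of 18.3. For Spp1 it was 11.3 against 0.768 CPM (ratio 14.7), for Atp6v0d2 14.3 against 1.34 CPM (10.7) and for Itgax 31.3 against 3.26 CPM (9.62). Gpnmb (101.6 against 17.5 CPM, ratio 5.801), Lgals3 (116.7 against 36.9, ratio 3.16), Trem2 (35.7 against 11.95, ratio 2.99) and Cd9 (52.6 against 28.7, ratio 1.83) differed less. Adgre1 differed by a ratio of 1.64 and Lep by 3.93. These ratios are descriptions, because the labels give no groups, and the presence of Y counts was kept as a term in every fit.

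High levels of the 8 genes met in part in the same mice. Over the 20 highest libraries of each gene, 48 libraries appeared at least once. Of these, 13 stood in the list of 6 or more genes and 22 in that of exactly 1. All 20 libraries of every list had Y chromosome counts. Mouse DO372 was in all 8 lists, with 1297 CPM of Gpnmb, 1022 of Mmp12, 535.2 of Spp1 and 382.7 of Itgax. DO542 was also in all 8, and DO088, which held the highest Trem2, Gpnmb and Atp6v0d2 of any mouse, was in 7. Gpnmb and Itgax shared 17 of their 20 highest libraries, whereas Trem2 shared between 7 and 10 with each of the others.

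Across mice, 5 genes moved almost as one. Pearson's r of log2 CPM was computed for the 28 pairs inside each set of libraries, with two-sided permutation tests of 100000 resamples and Benjamini-Hochberg adjustment over 88 relations. In the libraries with Y counts the median r was 0.693 (range 0.423 to 0.958), and in those without it was 0.684 (range 0.232 to 0.916). With Y counts, all 28 pairs reached 1e-05, the smallest p the permutations can give, and without them 24 did. The largest permutation p was 0.0004 (adjusted p = 0.000405), for Trem2 with Spp1. Spearman's rho gave medians of 0.726 and 0.636.

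Gpnmb, Lgals3, Itgax, Mmp12 and Atp6v0d2 formed the tight core, which was picked from these same correlations. Its Spearman's rho without Y counts ran from 0.576 (Gpnmb with Lgals3) to 0.893 (Itgax with Mmp12). With Y counts their 10 pairs ran from Mmp12 with Lgals3 (r = 0.924) to Gpnmb with Atp6v0d2 (r = 0.958), and without Y counts from Gpnmb with Lgals3 (r = 0.734) to Itgax with Mmp12 (r = 0.916). Inside 5 blocks of consecutive library numbers, with each set of libraries centred on its own mean, Itgax with Mmp12 had r between 0.911 and 0.949. Leaving out the 2 libraries farthest from the median of the gene on the x axis moved no pair with Y counts by more than 0.0990 and none without by more than 0.0263. Cd9 and Spp1 followed the core less closely, with r = 0.738 for Cd9 with Gpnmb and 0.706 for Spp1 with Gpnmb in the libraries with Y counts. Without Y counts this held for Cd9 (r = 0.619 with Gpnmb), while Spp1 with Gpnmb (r = 0.7497) lay above the lowest core pair.

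Trem2, the gene after which the macrophage state is often named, was the loosest member. Its r with the other 7 genes had a median of 0.559 with Y counts (0.423 to 0.598) and of 0.270 without (0.232 to 0.322). Among the 21 pairs that leave Trem2 out, the medians were 0.7502 and 0.7496.

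Part of the shared movement remained once Adgre1 was accounted for. After the terms for Y counts, mouse number and Adgre1 were removed from log2 CPM, the 28 pairs had a median r of 0.445 over all libraries. Itgax with Mmp12 (r = 0.858) and Gpnmb with Atp6v0d2 (r = 0.807) were the highest, and Trem2 with Spp1 (r = 0.133) the lowest. The medians inside the 2 sets of libraries were 0.693 and 0.684 before that removal. The values after it are descriptions with no test, and how much macrophage content Adgre1 left in them was not tested.

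By the same measure, the genes outside the 8 that were most like their mean were Adam8 (r = 0.787), Gm20056 (0.785), Cd84 (0.780), Arhgap25 (0.776), Dpep2 (0.775), Tm4sf19 (0.770), Rgs1 (0.770), Ctss (0.733), Lat2 (0.732) and Nceh1 (0.710). They were found among 14693 genes of at least 1 CPM on average. Adam8 encodes a membrane metalloprotease of leukocytes, Cd84 a receptor of the SLAM family, Ctss the lysosomal protease cathepsin S, and Nceh1 an enzyme that hydrolyses cholesteryl esters. Cd9 had other neighbours, namely Arhgef10l (0.722), Sfxn3 (0.699) and the kinase gene Src (0.690), and none of these 3 was among the 10 above.

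Because the core genes move together, the promoters of the 8 genes were searched on both strands for 4 words. Each promoter ran from 250 bases before to 50 after an annotated start (RefSeq, GRCm38.p6). The words were TGAGTCA, which AP-1 factors bind, GAGGAAGT, which PU.1 binds, and CACGTG and TCATGTG, which MITF and its relatives bind. RefSeq entries were at hand for 7 of the 8 genes, with 9 promoters in all, and Atp6v0d2 had none. The 9 thus include those of Trem2, Cd9 and Spp1, which are outside the core, and more than 1 start of Mmp12. The AP-1 word stood in 3 of the 9 against 5.20% of 32851 promoters, and the PU.1 word in 2 against 3.20%. TCATGTG stood in 1 against 3.77% and CACGTG in 0 against 7.15%. The matches are shown in 30-base windows on the strand of the gene, in lower case with the word, or its reverse complement, in capitals, because they include 2 of the most tightly linked genes, Itgax and Mmp12. A match is a description of the letters and not of binding. Distances are from the RefSeq starts, which can differ from the gene starts given above. The Gpnmb word lies after its RefSeq start but ahead of the gene start given above (49036546).
Gpnmb, AP-1 word from 9 bases after the start (chr6:49036515-49036544): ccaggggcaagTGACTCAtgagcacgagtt
Itgax, AP-1 word from 56 bases before the start (chr7:128129483-128129512): cccacctcctcTGAGTCAcgctgacaactt
Mmp12, AP-1 word from 44 bases before a second start (chr9:7347319-7347348): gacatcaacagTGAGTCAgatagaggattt
Mmp12, MITF word from 83 bases before the second start (chr9:7347280-7347309): tgctgttacttCACATGAttctgaagtaaa
Mmp12, PU.1 word from 88 bases before the first start (chr9:7344298-7344327): ccacttcacccACTTCCTCttccaagactc
Spp1, PU.1 word ahead of the start (chr5:104434987-104435016): caaaaccagagGAGGAAGTgtaggagcagg

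The next comparison asked whether the 8 genes change merely in proportion to macrophage transcript or more than that. For each gene the slope of its log2 level on log2 CPM of Adgre1 was fitted in edgeR and tested against 1, the slope of a gene that changes in exact proportion. Of the 8 genes, 6 were steeper than 1 and 2 were shallower, at a Benjamini-Hochberg adjusted p under 0.05. Over all 18379 genes tested, 0.392% were called steeper and 99.2% shallower, and the median slope was -0.02. Measurement error in Adgre1 pulls every slope toward 0.

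Mmp12 had the steepest slope of the group, 2.13 ± 0.088 (SE over all libraries, edgeR adjusted p = 1.79e-32), and ranked 5 of all 18379 genes. Atp6v0d2 followed at 1.96 ± 0.063 (rank 6), Itgax at 1.90 ± 0.063 (rank 8) and Gpnmb at 1.74 ± 0.057 (rank 11). In the libraries with Y counts, the median of Mmp12 was 6.96 CPM in the quintile of mice with the lowest Adgre1 and 251.5 CPM in the highest, a 36.2-fold step over which Adgre1 itself rose 5.01-fold. Itgax rose 22.2-fold over the same quintiles, from 6.63 to 147.2 CPM. The median of Gpnmb went from 26.5 to 578.3 CPM, and that of Atp6v0d2 from 3.12 to 89.7 CPM. Without Y counts, Adgre1 rose 2.62-fold between the outer quintiles and Mmp12 rose 21.1-fold.

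Spp1 and Lgals3 were closer to proportion. Spp1 had a slope of 1.27 ± 0.092 (edgeR, adjusted p = 0.00337) and Lgals3 of 1.09 ± 0.037 (adjusted p = 0.0128). The call of Lgals3 was lost in the libraries without Y counts (slope 1.02, adjusted p = 0.794), and that of Spp1 in those with them (slope 1.13, adjusted p = 0.253). Lgals3 also missed the threshold without the tenth of libraries of lowest depth (slope 1.07, adjusted p = 0.0758), and in limma on log2 CPM (slope 1.05, adjusted p = 0.20) and on the deposited VST values (slope 1.06, adjusted p = 0.137). On those VST values Spp1 had a slope of 1.06 and an adjusted p of 0.36.

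Cd9 and Trem2 were the shallow pair. Cd9 had a slope of 0.41 ± 0.024 (edgeR, adjusted p = 3.97e-85) and Trem2 of 0.49 ± 0.084 (adjusted p = 2.52e-09). They ranked 1099 and 803 among the 18379 slopes. In the libraries without Y counts the edgeR slope of Trem2 was 0.26. The r of Trem2 with Adgre1 was 0.190 there, against 0.555 with Y counts. Between the outer Adgre1 quintiles the median of Trem2 went from 12.5 to 18.1 CPM without Y counts. With Y counts it went from 12.7 to 84.3 CPM. Adgre1 lies on chromosome 17 like Trem2, with the starts of the genes 9.01 Mb apart. The part of this in the slope of Trem2 was not tested. The call of Trem2 was kept in 12 of 15 alternatives and lost in 3. Its slope was 0.84 in limma on log2 CPM (adjusted p = 0.076). With Csf1r, a receptor found on all macrophages, in place of Adgre1 it was 0.88 (edgeR, adjusted p = 0.377), and with the mean of 6 macrophage genes 0.89 (adjusted p = 0.411). A reduced major axis line, which divides the 2 standard deviations and so ignores how loosely the genes follow each other, gave 2.06.

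**Figure D2:**
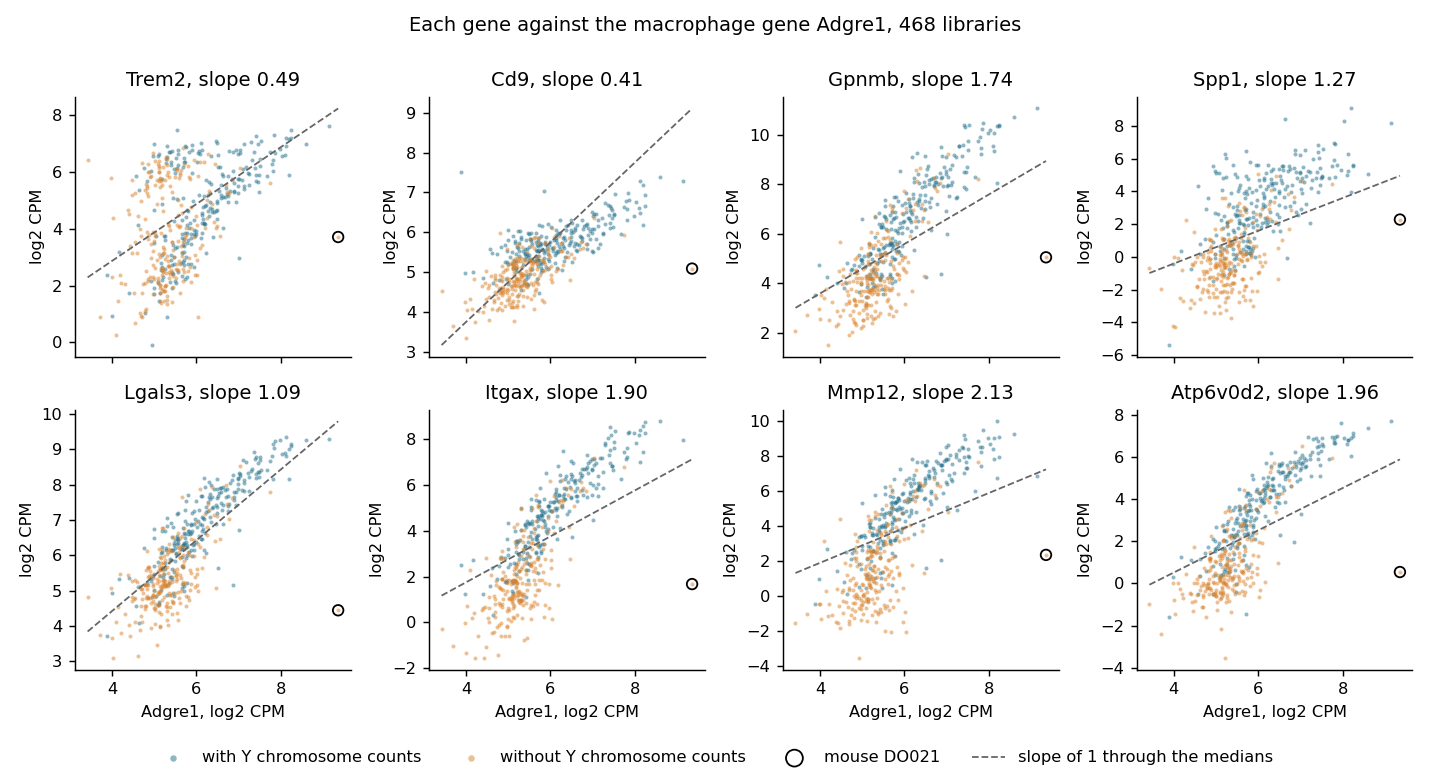
Log2 CPM of each of the 8 genes against log2 CPM of Adgre1 in every library, coloured by the presence of Y chromosome counts. The dashed line has a slope of 1 through the medians, the ring marks mouse DO021, and each title gives the slope fitted in edgeR. Mmp12, Atp6v0d2, Itgax and Gpnmb climb faster than the dashed line, Cd9 more slowly, and Trem2 splits into 2 bands where Adgre1 is low.

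1 library stood apart on Adgre1. Mouse DO021 had the highest Adgre1 of all, 656.5 CPM against a median of 47.5, and no Y counts. Of the 8 genes, 7 were below their median over all libraries in this mouse, among them Gpnmb (33.01 CPM), Trem2 (13.02 CPM) and Itgax (3.16 CPM), while Spp1 was above it (4.84 against 2.22 CPM). Lep was low (67.1 CPM), and 93.6% of libraries had more Lgals3 than its 21.8 CPM. Of 17 general macrophage genes including Adgre1, 15 were above their median, and Csf1r (149.5 CPM) and Cd68 (26.6 CPM) were below it. Aif1 (51.99 CPM, 21.04 times the median), Tnf, Il1b, Vav1, Plcg2, Batf3 and Csf3r were also at their highest in this mouse. The epithelial genes Cdh1 (16.5 CPM) and Epcam (14.9 CPM) were 62.9 and 26.2 times their low medians of 0.262 and 0.57 CPM. More Cdh1 was found in 9.6% of libraries and more Epcam in 12.2%. These genes were named after their values were seen, and their part in its Adgre1 level was not tested. Without this mouse the slopes were slightly higher for every gene (Mmp12 2.15, Lgals3 1.11, Trem2 0.50), and 6 of the 8 genes were again called steeper.

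Inside 5 blocks of consecutive mouse numbers, least-squares slopes on log2 CPM ran from 1.27 to 2.45 for Mmp12, 1.25 to 2.18 for Atp6v0d2, 1.20 to 2.13 for Itgax and 1.12 to 1.90 for Gpnmb. All 4 thus stayed above 1 in each block. Spp1 ran from 1.25 to 1.76, Lgals3 from 0.72 to 1.26, Trem2 from 0.74 to 0.96 and Cd9 from 0.37 to 0.52. Inside 5 blocks of library numbers, Spp1 ran from 0.95 to 1.69, Lgals3 from 0.75 to 1.20 and Trem2 from 0.53 to 1.15, so that each crossed 1.

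Of the 72 genes called steeper than Adgre1, 58 averaged 1 CPM or more. The 10 steepest of these were Itgad (slope 2.57), Tph2 (2.52), Myh15 (2.21), Tm4sf19 (2.13), Mmp12, Atp6v0d2, Gm20056 (1.93), Itgax, Ubd (1.83) and Gpnmb, so that 4 of the 10 belong to the group described here. Itgad encodes CD11d, an integrin chain closely related to that of Itgax. Most of the others were scarce, with median levels of 0.822 CPM for Itgad, 0.849 for Tph2, 0.266 for Myh15 and 0.517 for Tm4sf19.

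Other macrophage genes are given by their slopes, since 99.2% of all genes were called shallower than 1 and a list of shallow genes is near that background. Of 16 general macrophage genes tested, 2 were steeper (Ctss, slope 1.12, and Cd68, 1.06) and 13 shallower, with a median slope of 0.67. Mertk (-0.02) and Cd14 (0.53) were the lowest. All 14 resident macrophage genes were shallower (median 0.21), from Vsig4 (0.68) and Folr2 (0.58) to Lyve1 (0.05) and Fcna (-0.01). All 7 monocyte genes were shallower too (median 0.43), with Ccr2, the receptor for CCL2, at 0.84.

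The same background of 99.2% applies to the genes of the surrounding pathways, whose counts are close to it. Of the 11 genes of TREM2 signalling and shedding, all were shallower than 1 (median 0.52), with the adaptor gene Tyrobp at 0.91, Vav1 at 0.77 and Apoe, a TREM2 ligand that fat cells also make, at -0.07. All 15 other subunits of the proton pump were shallower (median 0.09, highest Atp6v0a1 at 0.39), against 1.96 for Atp6v0d2. All 19 lysosomal genes were shallower (median 0.34), with the protease Ctsk at 0.89 and the lipase Lipa at 0.60. Of 16 further genes used to describe lipid-associated macrophages, 15 were shallower, and Capg, which encodes an actin-capping protein, was not called (slope 0.96, edgeR adjusted p = 0.129). Their median slope was 0.31, and fat cells also express several of them, such as Lpl (-0.06).

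Some genes outside the 8 did pass the slope of 1. Of 17 genes of lipid uptake, storage and efflux, the oxidised-lipoprotein receptor gene Olr1 was steeper (1.56) and 15 were shallower. Of 9 osteoclast genes, Dcstamp, which is needed for macrophages to fuse, was steeper (1.59) and 8 were shallower. Of 9 inflammatory genes, the chemokine genes Ccl2 (1.25) and Ccl3 (1.17) were steeper and 7 shallower. All 11 transcription factor genes of lysosome and macrophage programmes were shallower, with Spi1 at 0.92 and Mitf at 0.25.

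Summed markers of macrophages and of other cells moved with Adgre1 as well. In the libraries with Y counts, the lowest and the highest quintile of Adgre1 were compared. The median summed level of 17 general macrophage genes, which include Adgre1 itself, went from 904 to 3083 CPM. That of 8 adipocyte genes went from 12611 to 7127 CPM. The corresponding sums were 10.5 and 17.4 CPM for 8 T cell genes, 11.496 and 17.48 CPM for 5 B cell genes, 5.69 and 18.8 CPM for 5 neutrophil genes, and 18.9 and 97.3 CPM for 7 mitosis genes. The sum of the 8 lipid-associated macrophage genes went from 180.7 to 1596 CPM. The part of other cells in these slopes was not tested.

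The second comparison asked how the 8 genes follow leptin transcript. All 8 rose with Lep in the edgeR fit at an adjusted p under 0.05, whereas of all genes tested 33.6% rose and 41.1% fell. The steepest were Mmp12 (slope 1.02 ± 0.053, rank 9 of 18379), Itgax (0.83 ± 0.042, rank 16) and Atp6v0d2 (0.79 ± 0.043, rank 17). Spp1 (0.56 ± 0.051), Gpnmb (0.44 ± 0.037) and Lgals3 (0.44 ± 0.023) followed, and Trem2 (0.25 ± 0.047) and Cd9 (0.15 ± 0.015) were again the lowest. The median over the 8 was 0.50, and that over all genes tested was -0.01.

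**Figure D3:**
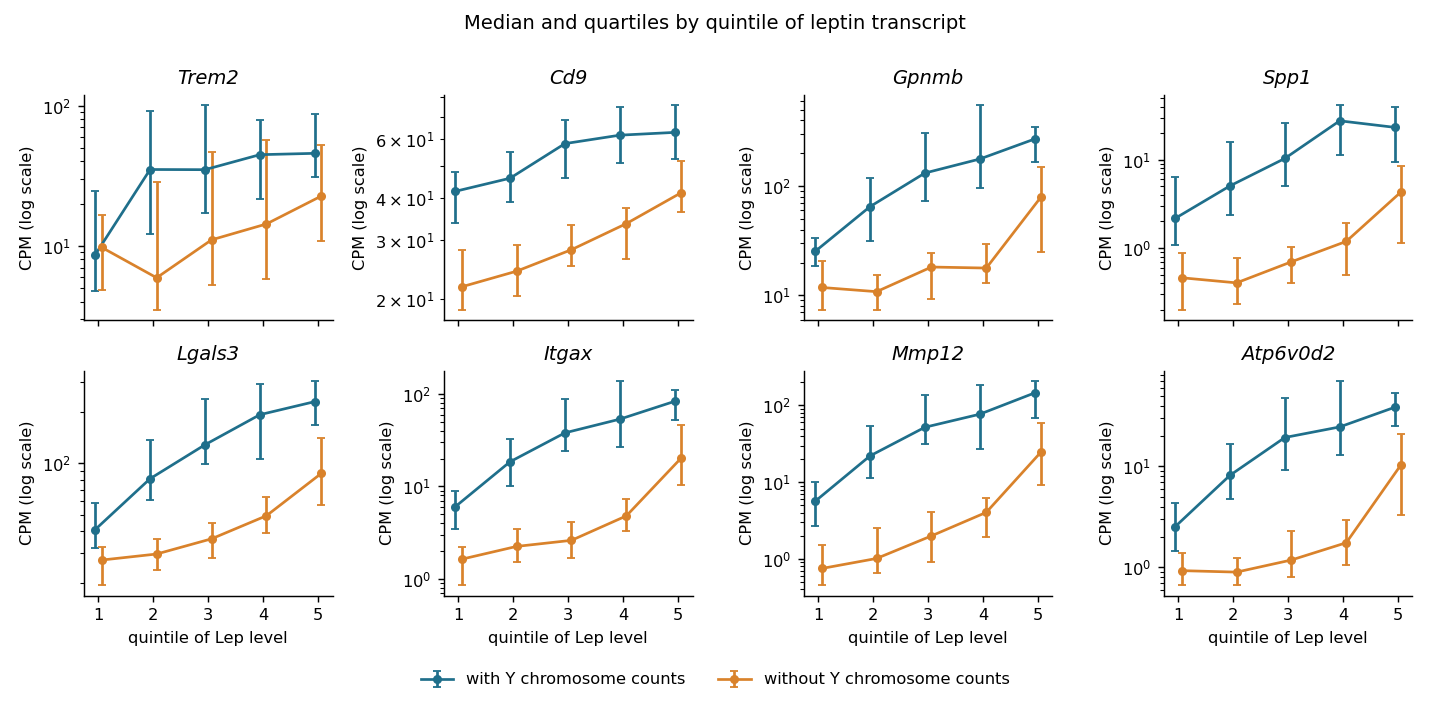
Median CPM of each gene (points, log axis; bars from the 25th to the 75th percentile) by quintile of Lep level, computed separately in the libraries with and without Y chromosome counts (45 to 49 libraries per point). With Y counts the core genes climb step by step from the lowest quintile, and without Y counts the largest step of Mmp12, Itgax, Atp6v0d2 and Gpnmb is the one into the highest quintile.

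The rise took another course in the libraries with and without Y counts. With them, the median of Mmp12 over the quintiles of Lep was 5.63, 21.98, 51.9, 76.8 and 145.4 CPM. Without them it was 0.751, 1.01, 2.00, 4.05 and 24.8 CPM. Mmp12 thus rose at every step in both sets. Gpnmb had medians of 25.3, 65.03, 132.07, 177.5 and 270.6 CPM with Y counts and 11.8, 10.8, 18.2, 17.8 and 80.1 CPM without, where it did not rise at every step.

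The quintiles cover other levels of Lep in the 2 sets of libraries. Their medians ran from 407.6 to 3524 CPM with Y counts and from 123.5 to 1905 CPM without. The fitted slope of Gpnmb on Lep was 0.95 ± 0.089 with Y counts and 0.37 ± 0.038 without, and that of Lgals3 was 0.72 ± 0.049 and 0.36 ± 0.023. Cd9 had 0.15 ± 0.027 and 0.15 ± 0.016. The difference between the sets was not tested.

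Lep and Adgre1 themselves go together, so Lep was also tested with Adgre1 held in the fit. How much macrophage content Adgre1 left in these slopes was not tested. All 8 genes still rose with Lep at equal Adgre1, where 29.8% of all genes rose and 35.9% fell. Mmp12 had a slope of 0.57 ± 0.048 (edgeR, adjusted p = 1.03e-27), Itgax 0.46 ± 0.032, Atp6v0d2 0.38 ± 0.035 and Spp1 0.30 ± 0.056. Lgals3 had 0.27 ± 0.018, Gpnmb 0.17 ± 0.030, Trem2 0.16 ± 0.054 (adjusted p = 0.00554) and Cd9 0.055 ± 0.015 (adjusted p = 0.00048).

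Fewer genes passed in the libraries with Y counts. There 5 of the 8 genes rose, namely Gpnmb, Lgals3, Itgax, Mmp12 and Atp6v0d2. Spp1 (slope 0.060 ± 0.11, adjusted p = 0.673), Trem2 (0.12 ± 0.081, adjusted p = 0.225) and Cd9 (-0.036 ± 0.027, adjusted p = 0.26) did not pass. Without Y counts all 8 rose, with Spp1 at 0.35 ± 0.062 and Cd9 at 0.092 ± 0.016. Gpnmb went the other way, with a slope of 0.25 with Y counts and 0.15 without. The difference between the sets was not tested. Adding the mean of the adipocyte genes to the fit left 8 of 8 rising.

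**Figure D4:**
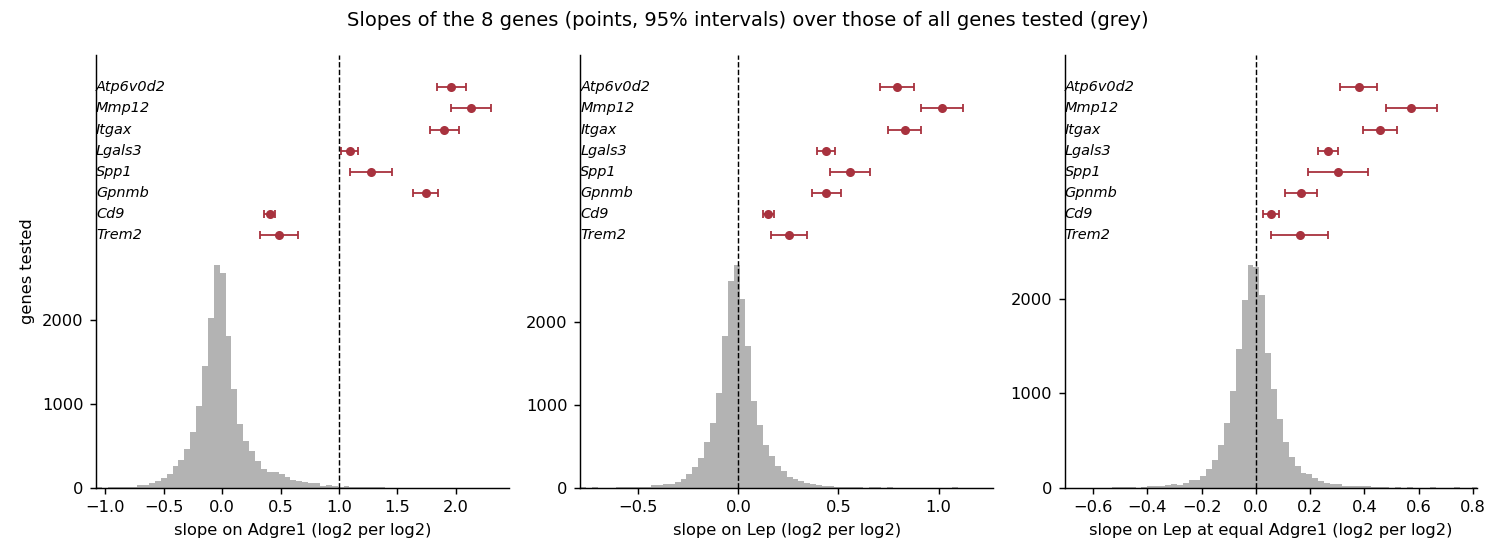
Slopes of the 8 genes (points with 95% intervals, log2 per log2) on Adgre1, on Lep, and on Lep at equal Adgre1, drawn above the histogram of the slopes of all genes tested (grey, values beyond an axis counted in its last bar). Dashed lines mark the slope tested against, 1 for Adgre1 and 0 for Lep. Mmp12, Itgax and Atp6v0d2 lie in the far right tail of the grey histogram in all 3 panels, and Cd9 lies nearest to its centre.

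Among related genes the general macrophage genes rose little with Lep once Adgre1 was held. Of 16 tested, 8 rose and 2 fell, with a median slope of 0.024 against -0.0073 over all genes. Ctss (0.10) and Spi1 (0.090) were the highest, and Mertk (-0.050) and Cd14 (-0.13) the lowest. Of 14 resident macrophage genes 8 rose and 1 fell (median 0.045). Olr1 (0.46), Dcstamp (0.42) and Ccl2 (0.35) had slopes within the range of the core genes.

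The counts of these lists stand against 29.8% of all genes rising and 35.9% falling, and several are near those shares. Of the 16 further genes used for lipid-associated macrophages, 11 rose and 2 fell at equal Adgre1, led by Anxa2 (0.26) and Emp1 (0.26), while Syngr1 (-0.22) and the tetraspanin gene Cd63 (-0.043) fell. Of 19 lysosomal genes 8 rose and 3 fell (median 0.0061), and of 15 other proton pump subunits 6 rose and 3 fell (median 0.0061). All 7 mitosis genes rose (median 0.21, with Mki67 at 0.22). Of the 8 T cell genes 1 rose and 6 fell (median -0.11), and of the 5 mast cell genes 1 rose and 4 fell.

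Trem2 differed from the other genes in the shape of its distribution. Among the libraries with Adgre1 under its median, the number of libraries per unit of log2 CPM of Trem2 was 66 between 2 and 3, 38 between 3 and 4, 16 between 4 and 5, 40 between 5 and 6, and 35 between 6 and 7. Crowded ranges thus lay on either side of a thin one. In the same libraries Gpnmb had a single crowded range, with 33, 68, 78, 35 and 16 libraries in the bins from 2 to 7. In the lowest Adgre1 quintile with Y counts, Trem2 had a lower quartile of 4.50, a median of 12.7 and an upper quartile of 70.8 CPM. This view of Trem2 was chosen after its values were seen.

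Most of the variation of Trem2 was its own. The terms for Y counts and mouse number, Adgre1 and the other 7 genes together accounted for 31.6% of the variance of its log2 CPM. The same terms accounted for 95.4% of Itgax, 94.8% of Atp6v0d2, 92.6% of Gpnmb, 88.8% of Lgals3, 75.2% of Spp1 and 74.8% of Cd9, with Mmp12 between Atp6v0d2 and Gpnmb. What remained of Trem2 had a standard deviation of 1.43 on the log2 scale, against 0.50 for Itgax.

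That remainder followed some of the genes near Trem2 on chromosome 17. The highest r was with Treml1 (r = 0.859 over all libraries), a receptor gene of the same family whose product is known from platelets and whose start lies 13.5 kb from that of Trem2. Nfya (r = 0.502, 63.5 kb), which encodes a subunit of the NF-Y transcription factor, and B230354K17Rik (r = 0.471, 2.91 Mb) came next, and Oard1 (63.6 kb) had r = 0.326. Of the 20 genes with the largest absolute r, 15 were on chromosome 17, which holds 4.77% of the genes compared. Over the 13992 genes of other chromosomes the largest absolute r was 0.233, for Tmem119. B430306N03Rik, which lies nearer to Trem2 than Nfya does, had r = 0.172, below that value. Foxp4 (r = 0.012) and Tfeb (0.0071), both nearer than B230354K17Rik, were also below it.

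Treml1 was far scarcer than Trem2, at a median of 0.795 and a maximum of 15.1 CPM, and the annotated bodies of the genes do not overlap. Before anything was removed, log2 CPM of Treml1 and Trem2 correlated at r = 0.757 with Y counts and 0.790 without, and Nfya and Trem2 at 0.640 and 0.538. Oard1 did not show its r with the remainder in the unadjusted levels (-0.258 and 0.067). Mouse genotypes were not analysed here.

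**Figure D5:**
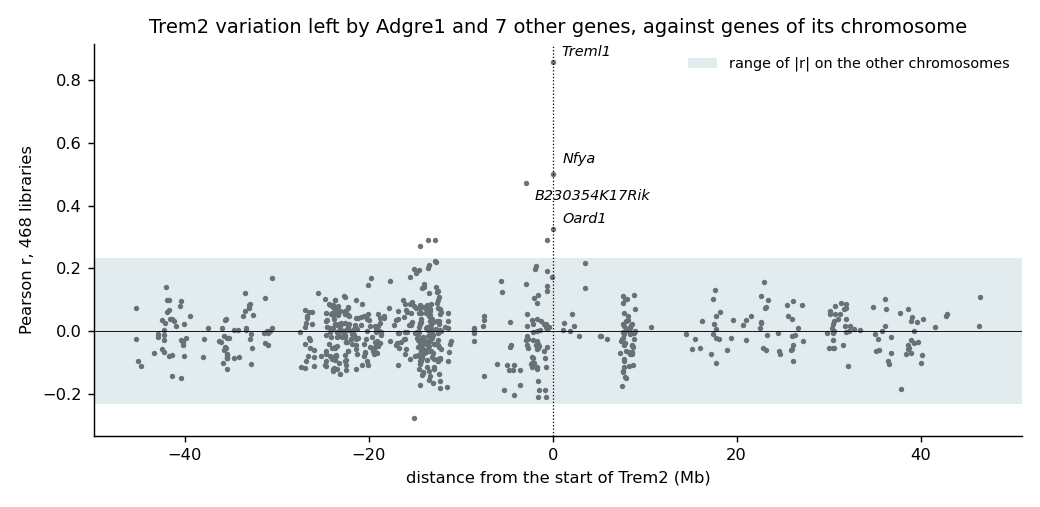
Pearson's r over all libraries between the part of Trem2 left after the terms for Y counts, mouse number, Adgre1 and the other 7 genes, and the same remainder of each gene of chromosome 17, against distance from the start of Trem2 in Mb. The shaded band spans plus and minus 0.233, the largest absolute r on any other chromosome. Treml1 at 0.859 and Nfya at 0.502 stand far above the band close to Trem2.

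None of the other 7 remainders had as many of the 20 most alike genes on the gene's own chromosome. The number was 5 for Mmp12, 2 for Gpnmb and Itgax, 1 for Spp1, Lgals3 and Atp6v0d2, and 0 for Cd9. Within 5 Mb lay 4 of those of Mmp12, among 26 genes compared there, against 8 of those of Trem2 among 77. The r values of Mmp12 were smaller, the largest being with Cwf19l2 (-0.284), Cwc15 (0.272), Mmp27 (-0.264) and Dcun1d5 (-0.248), all on chromosome 9. The remainder of Itgax went with leukocyte and antigen presentation genes, among them Coro1a (r = 0.495), H2-DMa (0.474), Irf8 (0.469), H2-Ab1 (0.456) and Ciita (0.453), the master regulator of MHC class II. Of these, Coro1a lies 1.42 Mb from Itgax on chromosome 7. That of Gpnmb went up with Mitf (0.381), which is 48.8 Mb away on chromosome 6, and down with Anxa2 (-0.4203) and the proliferation gene Mki67 (-0.384). That of Lgals3 went with G6pdx (0.498), Lmna (0.485) and Anxa2 (0.469).

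The remainder of Cd9 went with Sfxn3 (0.706), Mmgt2 (0.698) and Src (0.668), genes that are not confined to macrophages. That of Spp1 went with Lcn2 (0.434), Gramd2 (0.432) and Dnah10 (0.4204), of which Lcn2 encodes lipocalin-2 and Dnah10 a dynein heavy chain of cilia. Lcn2 also stands in the list of epithelial genes fixed for other cell types. Of its 9 genes, 6 were tested (Epcam, Krt8, Krt18, Krt7, Cdh1 and Lcn2), Cldn4 was too low, and Csn3 and Wap were not in the table. Their summed level ran from 10.9 to 1630 CPM with Y counts and from 7.42 to 118.3 CPM without, and their part in the level of Spp1 was not tested. These remainders were compared after the values were seen and carry no test.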

How the data were processed

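Gonadal fat RNA was poly(A)-selected and sequenced, and the study's methods state that reads were aligned as single ends to a transcriptome joining the 8 founder strains and quantified with EMASE within GBRS (no versions named). The authors deposited expected counts per gene for 468 libraries, not normalized, and log2-scale values after the variance stabilizing transformation (VST) of DESeq2. Every gene had at least 1 count in 50% or more of the libraries. The build was GRCm38 per the labels, and all 23180 identifiers were found in GENCODE M21, 99.2% at the same coordinates.

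Here log2 CPM used the total count, TMM factors (0.578 to 1.36) from the 18380 genes with at least 10 counts in 50% of libraries, and a prior count of 2. Slopes were tested with the quasi-likelihood test of edgeR 4.0.16 (R 4.3.3) on rounded counts of all 468 libraries, with Benjamini-Hochberg adjustment over all genes tested and a threshold of 0.05. Covariates were the presence of Y counts, in place of sex, and 5 blocks of consecutive mouse numbers, in place of generation and wave. The reference gene entered also as an offset where the slope was tested against 1 and was itself left out. The SE is the slope difference divided by the square root of F. The scripts were tested on simulated data. No 2 libraries were alike enough to be duplicates (highest r of gene-centred values 0.699). Intervals and detection limits cover counting or sampling error only. Alternatives were DESeq2 1.42.0 and its size factors, limma 3.58.1 on log2 CPM and on VST values, other filters, covariates, libraries and macrophage references.

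The 8 genes, the lists and the tests were chosen with earlier results of these data known. Named genes were the 8, Adgre1, Lep, the 2 highest and 2 lowest slopes of a list, the 10 genes most like the mean of the 8 and the 3 most like each, and the 10 steepest on Adgre1 of at least 1 CPM on average. A few others (such as Capg, Apoe, Mitf, Mki67 and the genes that follow the remainders) were named after their values were seen.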

Additional observations from a re-analysis of the deposited data

How the results depend on the processing

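All 8 genes rose with Lep under each of the 13 alternatives run for that test, but the sizes moved, with the slope of Gpnmb from 0.37 to 0.95 and that of Lgals3 from 0.36 to 0.72. Of the slopes on Adgre1, those of Mmp12, Atp6v0d2, Itgax and Gpnmb remained called above 1, and that of Cd9 below 1, under all 15 alternatives that carry a test, while 4 to 6 of the 8 genes were called steeper. The share of all genes called steeper was 0.392%. It was 1.52% with Csf1r and 1.75% with the mean of 6 macrophage genes in place of Adgre1, and 0.0762% in limma on the deposited VST values, and the other 12 alternatives gave 0.326% to 0.490%. The cause was not tested. Trem2 changed from shallower than 1 to 2.06 as a reduced major axis slope, which has no test. At equal Adgre1, 8 genes rose with Lep but 5 in the libraries with Y counts alone, where the slope of Cd9 was -0.036; the cause was not tested. The median r of the 28 pairs was 0.708 and 0.715 on VST values, and the median SD of the 8 genes, 2.18, was 1.74 on VST values and 2.27 without TMM factors. No paired analysis was possible because all libraries form 1 group. Depth limits the lowest levels: the smallest count of Trem2 in a library was 70, but those of Spp1, Mmp12 and Atp6v0d2 were 0, 4 and 5.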
